A study of Rattus norvegicus with 109 samples.

Results

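Scrambled and Sham, the control procedures of the study, were compared in the nucleus of the solitary tract (NTS) of Wistar Kyoto (WKY) rats, the normotensive comparison strain of the spontaneously hypertensive rat (SHR). Rats labelled Scrambled received a locked nucleic acid antisense oligonucleotide that matches no known microRNA or messenger RNA, and rats labelled Sham had cannulas inserted and an empty needle held in place for the injection time. Every section so labelled was taken, which gave 5 Scrambled rats with 15 sections and 3 Sham rats with 8, or 23 of the 109 sections in the series. The other sections came from WKY rats given a mix of microRNA inhibitors, labelled Cocktail (27 sections from 4 rats), and from SHR given the same 3 procedures. Scrambled and Cocktail rats thus both received oligonucleotides, though not the same ones, and Scrambled and Sham share the absence of an inhibitor. Strains were age-matched, and the age, the sex and the time from surgery to tissue are not stated by the labels. The question is whether the control oligonucleotide and its injection leave NTS transcripts different from those after the surgery with no injection.

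The NTS receives the first central synapse of the arterial baroreflex and passes it to neurons that set sympathetic outflow. Noradrenergic neurons, angiotensin II signalling and inflammatory mediators such as interleukins and leukotrienes all act in this nucleus and can alter how it handles blood pressure signals. A scrambled oligonucleotide serves as the control for a microRNA inhibitor, because it carries the same backbone chemistry without a designed target. Sham surgery controls for anaesthesia, the cannula and the tissue track, but not for fluid or nucleic acid.

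The Cocktail that Scrambled stands in for held inhibitors of miR-135a and miR-376a, and these are among the microRNAs to which, per the labels, the scrambled sequence does not align. The labels do not name the arm, so both mature arms of each rat microRNA are shown from RefSeq (GRCr8), with the seed, bases 2 to 8, in capitals. No seed is shared between the 4.
rno-miR-135a-5p: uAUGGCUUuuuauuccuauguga
rno-miR-135a-3p: uGUAGGGAuggaagccaugaaa
rno-miR-376a-5p: gGUAGAUUcuccuucuaugag
rno-miR-376a-3p: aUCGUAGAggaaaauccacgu

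Messenger RNA of 19 genes was quantified by PCR with fluorescence detection in tissue captured by laser from brainstem sections, and 18 of them are described here. Levels are minus ΔCt, a log2 scale on which 1 unit is a doubling of RNA if product doubles in each cycle, relative to the authors' own constant for that section. The rat is the replicate, so sections were averaged within a rat and n counts rats. The 5 Scrambled rats (numbers 1700, 4610, 4614, 4615 and 4618) gave 4, 4, 2, 3 and 2 sections, and the 3 Sham rats (4611, 4613 and 4617) gave 2, 3 and 3. Rat number 4614 is also a label under Cocktail, with 5 other sections, so the differences that it moves most are also given without its Scrambled set. Th and Dbh, which mark the noradrenergic neurons of this region, had a value in all 23 sections. Markers of neurons in general, astrocytes, microglia, oligodendrocytes and endothelium were not measured, so the cell make-up of the sections cannot be compared.

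The median raw cycle number (Ct) of a section stands for its RNA input, since less starting RNA needs more cycles. Its rat mean was 15.4 ± 1.73 (SD, n = 5) after Scrambled and 14.0 ± 1.09 (SD, n = 3) after Sham, a difference of 1.38 cycles (two-sided exact permutation p = 0.268). The highest rat mean was 17.7 in Scrambled rat 4610 and the lowest was 12.8 in Sham rat 4613, and the groups overlapped. Sections with a median above 18 cycles numbered 3 after Scrambled (1 of rat 1700 and 2 of rat 4610) and 1 after Sham (rat 4617). These 4 late sections held 9 of the 14 missing values among the 414 reported gene values of these sections.

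**Figure D1:**
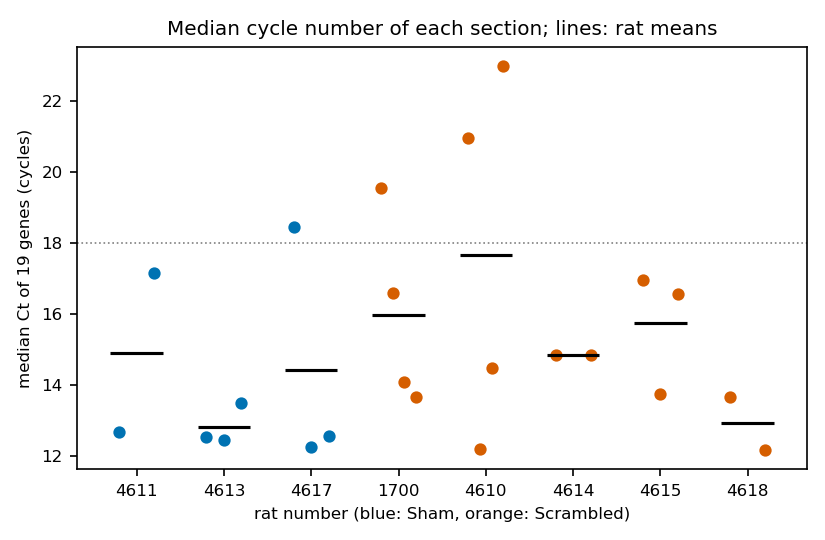
Median Ct over genes (cycles, y axis) of each section, by rat (x axis), with Sham rats in blue and Scrambled rats in orange, lines at the rat means and a dotted line at 18 cycles. The 2 latest sections are of Scrambled rat 4610, and 1 Sham section, of rat 4617, lies above the dotted line.

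The transcript with the widest gap between the procedures was Il1a, which encodes the pro-inflammatory cytokine interleukin-1α. Its rat means after Scrambled were -6.04 in rat 1700, -4.32 in rat 4610, -9.14 in rat 4614, -3.47 in rat 4615 and -3.53 in rat 4618. After Sham they were -0.15 in rat 4611, -1.19 in rat 4613 and -2.34 in rat 4617. Every Scrambled rat lay below every Sham rat, and Il1a was the only one of 19 genes with such a gap in the lower direction (5.26% of genes), while no gene had it in the higher direction (0%). The group means were -5.30 ± 2.39 (SD, n = 5) and -1.23 ± 1.10 (SD, n = 3). The difference of -4.07 (standard error 1.24, 95% confidence interval -6.68 to -1.46) amounts to 16.8-fold more Il1a RNA after Sham, and it missed the threshold of 0.05 (limma, adjusted p = 0.0811). An exact permutation test of the 8 rats gave p = 0.0357 before adjustment, where 0.0179 is the smallest that 56 divisions of the rats allow, and p = 0.452 after adjustment over 19 genes. In tissue sections, fewer cells that make a transcript and less of it in each cell cannot be told apart.

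Single sections were less separate than the rat means of Il1a. Of 15 Scrambled sections, 10 lay below the lowest Sham section (-2.72) and 5 lay within the Sham range. The median section was at -5.04 after Scrambled and at -1.73 after Sham. The 5 high Scrambled sections came from rats 4610, 4615 and 4618, whose other sections reached -9.35, -7.18 and -5.25. In rat 4610 the 2 high sections, at -2.15 and -1.12, were its late ones. Over sections, raw Il1a Ct had a median of 22.6 after Scrambled and 14.3 after Sham. Over rat means, the Il1a difference with no normalisation was -5.41, and median Ct was 1.38 cycles later after Scrambled. What part of the raw Il1a gap goes with RNA input was not tested. Both sections of rat 4614 were among the lowest, at -9.23 and -9.06, whereas the 5 sections labelled Cocktail under the same rat number averaged -2.68. Without its Scrambled set the difference was -3.11 (limma, adjusted p = 0.174). The 4 Cocktail rats of WKY, which also received an oligonucleotide, had a mean of -3.48 ± 0.96 (SD, n = 4) and a range from -4.76 to -2.68. Each of these 4 rats, 4614 among them, also lay below each Sham rat. Among the 18 genes reported, only Il1a and Th had no overlap between Cocktail and Sham rats, Th in the higher direction. The gap of Th was narrow, with its lowest Cocktail rat at 3.10 and its highest Sham rat at 2.91. These gaps between Cocktail and Sham were not tested.

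**Figure D2:**
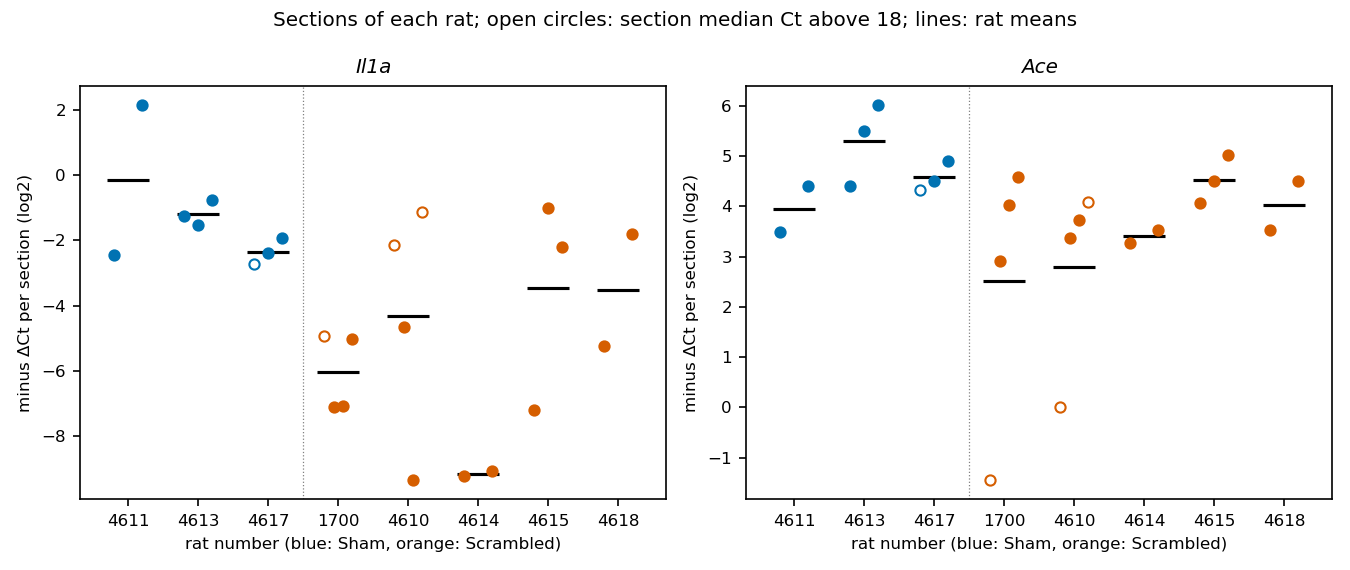
Minus ΔCt (log2, y axis) of Il1a on the left and Ace on the right in each section, by rat (x axis), with Sham in blue, Scrambled in orange, open circles for sections with a median Ct above 18 and lines at the rat means. For Il1a all 5 Scrambled lines lie below the 3 Sham lines, but sections of rats 4610, 4615 and 4618 spread widely. For Ace the lowest points are late sections of rats 1700 and 4610.

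The size and the call of the Il1a difference moved with the processing, and its direction did not in the 31 other settings run. It ranged from -5.41 to -3.11, and adjusted p ran from 0.0196 to 0.452. It passed the threshold without late sections (-4.75, limma, adjusted p = 0.0341), a setting that applied the 18-cycle limit to all 6 groups of the fit. The same held with raw Ct minus that of Actb (-4.93, limma, adjusted p = 0.0196) and with no normalisation (-5.41, adjusted p = 0.0196). With raw Ct minus the mean of Actb and EiF4e it passed too (-4.72, limma, adjusted p = 0.0401). It also passed without Scrambled rat 4615 (-4.53, adjusted p = 0.0468). In the fits that left out 1 of the other 7 rats, adjusted p lay between 0.0531 without rat 4618 and 0.210 without Sham rat 4611.

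Neither of the other interleukin genes separated the procedures, and no interleukin gene passed. Il1b encodes interleukin-1β, the secreted partner of interleukin-1α at the same receptor. It had no value in 6 of 15 Scrambled and 2 of 8 Sham sections, and its measured raw Ct ran from 18.23 to 28.98 of 30 cycles. Its rat means were -10.6, -10.8, -7.71 and -8.36 in Scrambled rats 1700, 4610, 4615 and 4618, with none in rat 4614, and -7.08, -6.38 and -11.0 in Sham rats 4611, 4613 and 4617. The lowest of these 7 was a Sham rat, and the groups overlapped. The difference of -1.21 had a 95% confidence interval from -4.34 to 1.92. The share of sections with an Il1b value averaged 60.0% over Scrambled rats and 72.2% over Sham rats (exact permutation p = 0.786), and Il1b was the only gene that lacked over 10% of its values and was tested in this way. Il10, the gene of the anti-inflammatory cytokine interleukin-10, averaged 0.19 ± 1.91 (SD, n = 5) over Scrambled rats and 0.54 ± 0.32 (SD, n = 3) over Sham rats. Scrambled rats 1700 (-2.44) and 4614 (2.19) lay on either side of all Sham rats. The difference of -0.36 (95% confidence interval -2.06 to 1.35) became 0.20 without the late sections and 0.30 without rat 1700.

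Ace, which encodes the enzyme that forms angiotensin II, was the second gene with an unadjusted p under 0.05. Its rat means were 2.52, 2.80, 3.41, 4.53 and 4.02 in Scrambled rats 1700, 4610, 4614, 4615 and 4618, and 3.95, 5.31 and 4.59 in Sham rats 4611, 4613 and 4617. Scrambled rats 4615 and 4618 lay above the lowest Sham rat, so the groups overlapped. The means of 3.46 ± 0.84 (SD, n = 5) and 4.61 ± 0.68 (SD, n = 3) differed by -1.16 (standard error 0.547, 95% confidence interval -2.31 to -0.0049), or 2.23-fold more Ace RNA after Sham, which did not pass (limma, adjusted p = 0.278). The exact permutation p was 0.125 before adjustment. The 2 lowest Ace sections were late ones, at -1.45 in rat 1700 and at 0.0043 in rat 4610, and the other 13 Scrambled sections had at least 2.91. These 13 include the other late section of rat 4610, which at 4.09 was the highest of that rat. Without the late sections the difference was -0.78 (adjusted p = 0.358). Relative to the mean of Actb and EiF4e it was -1.80 and passed (limma, adjusted p = 0.0401), while relative to Actb alone it was -2.02 and did not (adjusted p = 0.0506).

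Rat means of the angiotensin receptor gene and its partner overlapped between the groups. Agtr1a encodes the type 1 receptor through which angiotensin II raises blood pressure, and its rat means ran from -4.19 (rat 1700) to -1.46 (rat 4618) after Scrambled and from -2.30 to -1.63 after Sham. The Scrambled rats thus enclosed the Sham rats, with a difference of -0.55 (95% confidence interval -1.85 to 0.74) that was -0.15 without rat 1700. Agtrap, whose protein binds that receptor and promotes its internalisation, was at 0.98 and 0.85 in Scrambled rats 1700 and 4610 and between 0.078 and 0.094 in the other 3. Sham rats spanned -0.35 to 0.83, and the difference was 0.27 (95% confidence interval -0.67 to 1.21). Of the 3 angiotensin-system genes reported, 2 had lower and 1 had higher means after Scrambled, 0 passed, and their median difference was -0.55 against 0.03 over all 19 genes.

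The catecholamine genes varied widely between rats of both procedures. Th encodes tyrosine hydroxylase, the rate-limiting enzyme of catecholamine synthesis, and was at 2.59, 4.04, 5.74, 0.89 and 3.79 in Scrambled rats 1700, 4610, 4614, 4615 and 4618 and at 2.91, 1.11 and 2.72 in Sham rats 4611, 4613 and 4617. Both the highest and the lowest of the 8 rats were Scrambled. Dbh encodes dopamine β-hydroxylase, which makes noradrenaline from dopamine, and ran from -3.72 (rat 1700) to 0.99 (rat 4614) after Scrambled and from -3.05 (rat 4613) to -0.39 (rat 4617) after Sham. The differences were 1.16 for Th (95% confidence interval -1.41 to 3.74) and 0.32 for Dbh (-2.08 to 2.72), and neither gene passed (limma, adjusted p = 0.619 and 0.873). The levels of both moved together between sections, with Pearson's r of 0.774 over 23 sections and 0.770 within rats. Sections of 1 rat share their source and all genes of a section share its constant, so these values describe the sections and were not tested. Without rat 4614 the differences were 0.58 for Th and -0.33 for Dbh. Without Sham rat 4613 they were 0.59 and -0.24, and without Scrambled rat 4615 that of Th was 1.79.

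Rat means of the leukotriene pathway genes overlapped between the groups, and none passed. Ptgr1 encodes a reductase that inactivates leukotriene B4 and prostaglandins. Its rat means were 0.094, -0.62, -0.16, -1.07 and -0.71 in Scrambled rats 1700, 4610, 4614, 4615 and 4618 and -0.95, -1.27 and -1.59 in the Sham rats. Only rat 4615 fell within the Sham range, and the difference was 0.78 (95% confidence interval -0.20 to 1.76). Alox5ap encodes the protein that hands arachidonic acid to 5-lipoxygenase, and Ltb4r encodes a receptor of leukotriene B4. Their differences were 0.03 (95% confidence interval -1.0 to 1.07) and 0.55 (-0.76 to 1.86). All 3 leukotriene genes had higher means after Scrambled, as did 10 of all 19 genes, with a median difference of 0.55, and 0 passed. This direction depends on the scaling, since relative to Actb all 3 were lower, with Alox5ap at -0.82, Ltb4r at -0.31 and Ptgr1 at -0.080, as they also were with no normalisation. Without rat 4614 Ltb4r differed by 0.27 and Alox5ap by -0.052.

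Both cyclooxygenase genes, for the enzymes that start prostaglandin synthesis, had lower means after Scrambled, and 0 of 2 passed. Ptgs1, the constitutive form, was at -1.59, -1.21, -2.63, -1.62 and -1.69 in Scrambled rats 1700, 4610, 4614, 4615 and 4618 and at -0.29, -0.67 and -1.58 in Sham rats 4611, 4613 and 4617. Sham rat 4617 lay within the Scrambled range and the other 2 Sham rats lay above it. The difference was -0.90 (95% confidence interval -1.95 to 0.15). Ptgs2, the inducible form, differed by -0.65 (95% confidence interval -2.28 to 0.98), with its highest rat mean, -1.73, in Sham rat 4611 and its lowest, -4.99, in Scrambled rat 4614. That difference was 0.03 without Sham rat 4611 and -0.34 without rat 4614.

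**Figure D3:**
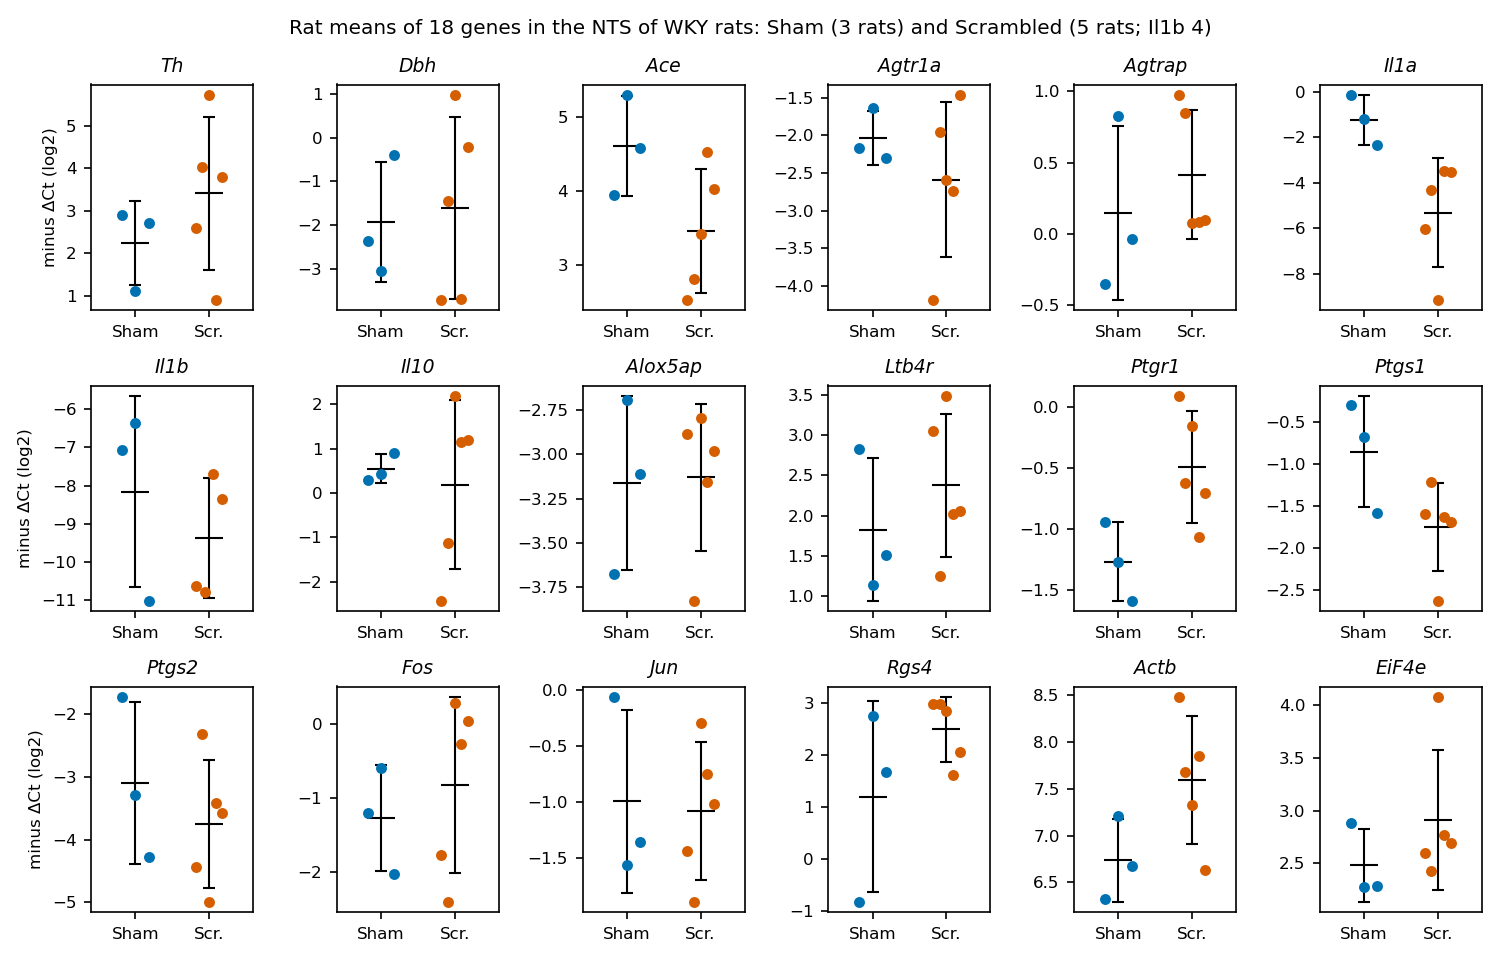
Minus ΔCt (log2, y axis of each panel, with its own range) of 18 genes in 3 Sham rats (blue) and 5 Scrambled rats (orange, 4 for Il1b), with black lines and bars for the mean and the SD over rats. The points of Il1a do not overlap between the groups, and those of each of the other 17 genes do.

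The immediate-early genes, which neurons switch on within minutes of strong input, overlapped between the groups, and 0 of 2 passed. Fos was at -1.77, -2.40, 0.29, -0.28 and 0.04 in Scrambled rats 1700, 4610, 4614, 4615 and 4618 and at -1.19, -0.59 and -2.02 in Sham rats 4611, 4613 and 4617. Of the Scrambled rats 3 lay above all Sham rats and 1 lay below them. Its difference was 0.44 (95% confidence interval -1.28 to 2.16), and 0.17 without rat 4614. Jun, whose protein pairs with that of Fos in the transcription factor AP-1, differed by -0.08 (95% confidence interval -1.70 to 1.54). Rgs4 encodes a regulator that shortens signals of G protein coupled receptors. It was at 2.97, 2.98, 2.84, 1.61 and 2.05 in the Scrambled rats in the same order and at -0.83, 2.75 and 1.67 in the Sham rats. Sham rat 4611 stood below all the others. The means of 2.49 ± 0.63 (SD, n = 5) and 1.20 ± 1.83 (SD, n = 3) differed by 1.29 (standard error 0.712, limma, adjusted p = 0.278), and by 0.28 without rat 4611 (adjusted p = 0.832).

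Common reference transcripts were also part of the panel. Actb, for β-actin, was at 8.48, 7.68, 7.33, 7.85 and 6.63 in Scrambled rats 1700, 4610, 4614, 4615 and 4618 and at 6.32, 7.21 and 6.68 in Sham rats 4611, 4613 and 4617. All Sham rats lay below 4 of the 5 Scrambled rats, and rat 4618 lay within their range. The means of 7.59 ± 0.68 (SD, n = 5) and 6.73 ± 0.45 (SD, n = 3) differed by 0.86 (standard error 0.465, limma, adjusted p = 0.278). In the 3 rats with late and other sections, mean Actb was higher in the late ones, and without late sections its difference was 0.79. EiF4e, for the factor that binds the cap of messenger RNA, was at 2.91 ± 0.67 (SD, n = 5) and at 2.48 ± 0.35 (SD, n = 3), a difference of 0.43 (95% confidence interval -0.50 to 1.36). For genes with a value in every section, taking Actb as the reference therefore lowers a difference by 0.86, and taking EiF4e lowers it by 0.43. On raw Ct with no normalisation, Actb differed by -0.48 and EiF4e by -0.90.

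Over the whole panel, limma called 0 of 19 genes (0%), and 2 (10.5%) had an unadjusted p under 0.05, Il1a and Ace. The exact permutation test had 1 gene, Il1a, under 0.05 before adjustment and called 0 genes after it. Its smallest possible p, 0.0179, is too large for a single gene to pass after adjustment over 19 genes. These 0 calls therefore say little. Of the 19 genes 10 had a higher and 9 a lower mean after Scrambled, and the median difference was 0.03. This split depends on the scaling. It became 2 higher and 16 lower relative to Actb, 6 and 12 relative to EiF4e, 3 and 14 relative to their mean, 5 and 14 relative to the median of genes with every value, and 0 and 19 with no normalisation. Those scalings moved the median difference to -0.82, -0.46, -0.64, -0.59 and -1.07, with reference genes counted at 0 in these medians and left out of the splits. Relative to the median of its own scaling, Il1a was at -4.10 as normalised by the authors and between -4.34 and -4.03 under those other scalings. Il1a had a value in every section, so a change of scaling shifts it and every other such gene alike. The closeness of these values follows largely from that and is no test of the Il1a difference. A missed threshold does not show that the procedures left a gene alike. The 95% confidence interval stayed within 1 log2 unit of 0 for 0 of the 18 genes reported and within 2 units for 9, and its half-width ran from 0.93 for EiF4e to 3.13 for Il1b.

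**Figure D4:**
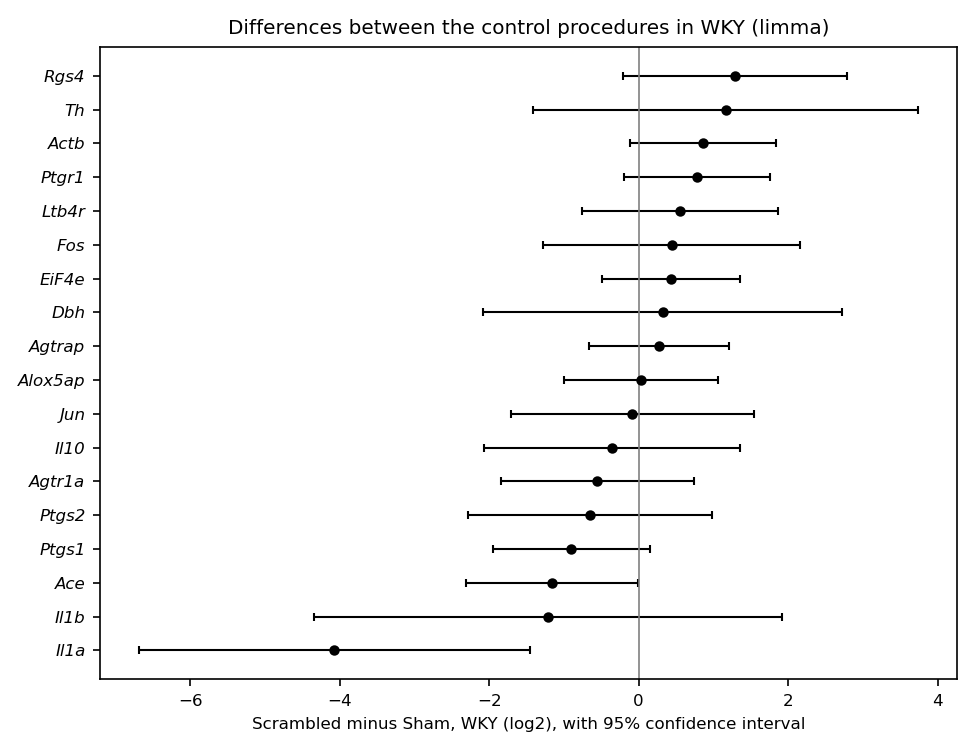
Difference of rat means, Scrambled minus Sham (log2, x axis), for 18 genes (y axis), with points at the limma estimate and bars for the 95% confidence interval. The intervals of Il1a and Ace do not reach 0, at unadjusted p, and those of the other 16 genes include it.

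By the estimates of mixed models, sections of 1 rat differed more than rats did for most genes. The SD between sections of a rat was larger than that between rats of a group for 16 of 18 genes, and the exceptions were Il1b and Fos. The median was 1.24 log2 units for sections and 0.385 for rats. For 7 genes the SD between rats was estimated at 0, the lowest value such a fit can give. These zeros lower the median for rats, and 8 rats estimate it poorly. Wide ranges over sections occurred in rats of both groups. Scrambled rats 1700 and 4610, with 4 sections each, spanned over 2 log2 units in 14 and 15 of 18 genes and over 4 in 3 and 5. Their median ranges were 2.49 and 3.19, against 2.51 in Sham rat 4611. Sham rat 4611 had 2 sections that differed by over 2 log2 units in 9 of 17 genes and by over 4 in 6. Its Il10 was at -4.19 in section WSh01 and at 4.78 in section WSh02, its EiF4e at -0.06 and 5.83, its Ltb4r at 0.23 and 5.43, and its Il1a at -2.46 and 2.15. With WSh02 alone for this rat the Il1a difference was -4.84 (limma, adjusted p = 0.0402), and with WSh01 alone it was -3.30 (adjusted p = 0.114), both settings chosen after seeing the data. Scrambled rat 4614 was the reverse case, with 2 sections that lay within 0.685 of each other in all 17 genes compared. This rat had the highest mean of the 8 rats for 6 genes (Th, Dbh, Il10, Ltb4r, Fos and EiF4e) and the lowest for 3 (Il1a, Ptgs1 and Ptgs2).

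Late sections differed from the others in 1 direction for some genes. In all 3 rats that had both kinds, Ace, Alox5ap, Dbh, EiF4e, Il10 and Jun were lower in late sections and Actb was higher. The other genes with values in all 3 rats went both ways. Rats 1700 and 4617 had 1 late section each, and 3 rats often share a direction by chance. These directions were not tested. In rat 1700 the late section had Il10 at -10.4 and the mean of the other 3 was 0.21. Leaving out the late sections moved the Il1a difference away from 0 and that of Ace towards it, as given above. The Il1a mean of rat 4610 went from -4.32 to -7.00 and that of rat 1700 from -6.04 to -6.41. That of Sham rat 4617 went from -2.34 to -2.15. Whether the late cycle numbers caused these shifts was not tested.

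**Figure D5:**
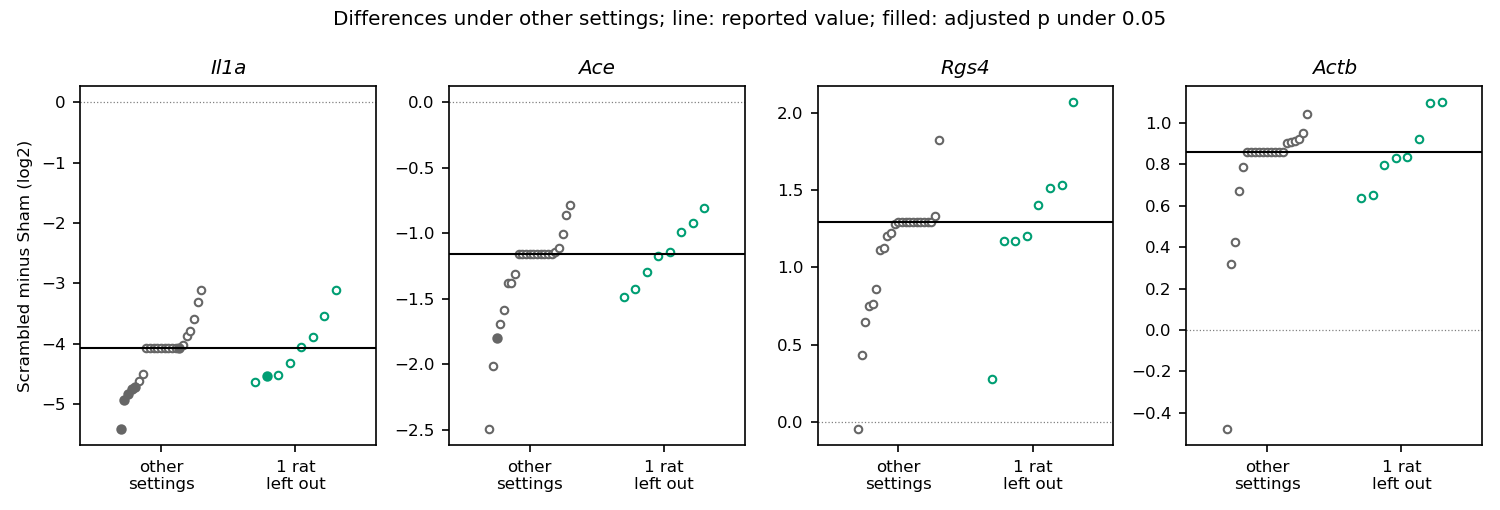
Difference Scrambled minus Sham (log2, y axis of each panel, with its own range) of Il1a, Ace, Rgs4 and Actb under other settings (grey) and with 1 of the 8 rats left out (green), with a line at the reported value and filled points for an adjusted p under 0.05. Il1a stays between -5.41 and -3.11 with 7 filled points, Ace has 1 filled point at -1.80, and Rgs4 and Actb have none.

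The same 2 procedures were compared in SHR with 2 Scrambled rats (4600 and 4604) and 1 Sham rat, which is assumed to vary like the other rats. Of the 15 Scrambled sections in SHR only 1 came from rat 4604 and the others from rat 4600, and the Sham rat gave 27. Il1a was at -0.96 and -5.48 in the Scrambled rats and at -4.85 in the Sham rat, so the Sham rat lay between them. The level of -5.48 is thus that of 1 section. The SHR difference was 1.62 against -4.07 in WKY, and the difference between the strains was 5.70 (standard error 2.42). Ptgs2 had a between-strain difference of 4.20 (standard error 1.67), from 1 SHR rat with a value on each side, so that its standard error is borrowed from the other groups. These 2 of 19 genes (10.5%) had an unadjusted p under 0.05 in that test, both with an adjusted p of 0.291 (limma), so 0 passed and a difference between the strains was not established. Without rat 4604 the between-strain difference of Il1a was 7.96 and that of Fos was 4.55. Without rat 4600 that of Il1a was 3.44 and that of Fos was 0.0057, with only 1 Scrambled section left in SHR. Each of these sets 1 SHR rat against 1, with no spread of its own, and cannot show a difference between the strains.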

How the data were processed

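Laser-captured NTS sections were assayed on microfluidic qPCR chips with a green DNA-binding dye and 30 cycles, and Ct was calculated with the instrument's analysis software, per the labels' protocols. The deposited normalised table holds log2 values, minus ΔCt. Within a section, each of them and the raw Ct of that gene add up to 1 constant, which gives the sign. Ct in the deposited raw table is treated as a score. The constant the authors subtracted was not the 19-gene median in any of these sections. It equalled the Ct of a reported gene in 4 of them (Agtrap in 2 and Ptgr1 in 2), and it lay on average 0.30 below that median after Scrambled and 0.26 below it after Sham (exact permutation p = 0.857). In 20 of the 23 sections the normalised values matched raw values under another section name of the same rat, so rat means were unaffected. All 19 identifiers matched RefSeq (GRCr8), and 0 columns went unused.

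Sections were averaged within a rat and procedure. The means of all 6 strain and procedure groups were fitted together with limma 3.58.1 (R 4.3.3), with Benjamini-Hochberg adjustment over 19 genes and a threshold of 0.05. The fit held 20 sets from 19 rat numbers, because number 4614 entered under Scrambled and under Cocktail, treated as independent. Without both of its sets the Il1a difference was -3.11 (limma, adjusted p = 0.206). Exact permutation tests divided the 8 rats. Alternatives covered normalisation, missing values, late sections, the summary of sections, the rats in the fit, rats left out, and the test, with mixed models (lme4 1.1.37, lmerTest 3.1.3). The code was tested on simulated data. Full statistics were given for the 5 genes with the smallest p, of which 4 are reported, and all other genes are given by values and intervals. One gene of the 19 entered every fit and adjustment, and its values are left out of this text. Gene lists and comparisons were chosen with earlier results of these data known. The labels name rats, not litters or chip runs, and the labels' 5 and 3 rats were used although the design text gives 4 to 5 per group. Figures were drawn with matplotlib 3.10.9.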

Additional observations from a re-analysis of the deposited data

Results flagged for a closer look

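One value stood apart from the rest of its group. EiF4e was at 4.08 in Scrambled rat 4614, while the other 4 Scrambled rats lay between 2.42 and 2.77, so the gap to the nearest rat was 0.79 of the whole range. The threshold for such a gap is passed by chance in about 1 in 20 groups, and 18 genes were examined in this group. The 5 sections that carry the same rat number under Cocktail had a mean EiF4e of 1.75. Without the Scrambled set of this rat the EiF4e difference between Scrambled and Sham was 0.14.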

How the results depend on the processing

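The count of genes past the threshold was 0 of 19 and stayed 0 in 24 of 31 other settings. These 24 include the exact permutation test, in which no single gene could pass after adjustment. The count was 1 (Il1a) relative to Actb, with no normalisation and without late sections, and 2 (Il1a and Ace) relative to the mean of Actb and EiF4e. Among settings chosen after seeing the data, it was 1 with the spread estimated without SHR Scrambled rat 4600 (limma, adjusted p = 0.0409 for Il1a) and 1 with rat 4611 from section WSh02 only. With 1 rat left out it ran from 0 to 1, and the between-strain count ran from 0 to 2, where the 2 rest on 1 SHR rat in each arm. Il1a, Ace, Ptgs1, Agtr1a and Il1b kept their direction in every setting run. All were lower after Scrambled, and most of the other scalings lowered differences further, so those scalings gave little chance of a turn. With only the 8 Scrambled and Sham rats in the fit, Il1a had an adjusted p of 0.191. No paired analysis was possible because Scrambled and Sham rats share no number.

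Scaling by Actb, EiF4e or their mean, by the median of genes with every value, or not at all lowered most differences, by unequal amounts in genes with missing values, and several small ones turned sign. Relative to the median of genes with every value, Dbh was at -0.22, Agtrap at -0.27, Alox5ap at -0.59, Fos at -0.12 and EiF4e at -0.11. Relative to Actb, Dbh was at -0.54, Agtrap at -0.59, Alox5ap at -0.82, Ltb4r at -0.31, Ptgr1 at -0.080, Fos at -0.41 and EiF4e at -0.43. Relative to EiF4e, Dbh was at -0.11, Agtrap at -0.16 and Alox5ap at -0.46. Relative to the mean of both, Dbh was at -0.32, Agtrap at -0.38, Alox5ap at -0.64, Ltb4r at -0.10 and Fos at -0.19. With no normalisation, Th was at -0.17, Dbh at -1.01, Agtrap at -1.07, Alox5ap at -0.97, Ltb4r at -0.79, Ptgr1 at -0.56, Fos at -0.67, Rgs4 at -0.043, Actb at -0.48 and EiF4e at -0.90.

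Alox5ap was also at -0.12 where its lowest level replaced missing values, at -0.17 with them at Ct 30 (chosen after seeing the data), at -0.050 with rats weighted by sections and in the mixed model, at -0.052 without both sets of rat 4614, and at -0.056 with rat 4611 from WSh02. Dbh turned to -0.30 with the median over sections, to -0.13 with rats weighted and to -0.33 without both sets of rat 4614. Il10 turned to 0.20 without late sections. With rat 4611 from WSh01 only, Il10 was at 1.14 and Jun at 0.60, and from WSh02 only, Ltb4r was at -0.32, Ptgs2 at 0.076 and EiF4e at -0.55. With 1 rat left out, Il10 ran from -0.86 to 0.30, Alox5ap from -0.23 to 0.27, Jun from -0.37 to 0.38, Dbh from -0.33 to 1.09 and Ptgs2 from -1.24 to 0.033. Without a change of sign, Th ran from 0.58 to 1.79, Agtr1a from -0.83 to -0.15, Agtrap from 0.019 to 0.61, Il1b from -2.64 to -0.32, Ltb4r from 0.20 to 1.05, Fos from 0.068 to 0.84 and EiF4e from 0.14 to 0.63. The number of rats and the spread between sections limit all of these values, and where a sign turned the cause was not tested.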
